A study of Mus musculus with 51 samples.

Results

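The peaks compared here are the H3K4me1 peaks of astroglial neural progenitors (aNPC) and of late astrocytes (lA), read as the start and the end of a differentiation course. On chromosomes 1 to 19 they are 353904 peaks, 150527 of aNPC and 203377 of lA, out of 803622 that 6 lists hold on all chromosomes. An aNPC peak was counted as lost when no lA peak shared at least 1 bp with it, an lA peak as gained when no aNPC peak did, and all others as kept. The early astrocyte stage (eA) played no part in that choice. By this rule 40523 aNPC peaks were lost, 110004 aNPC peaks and 112885 lA peaks were kept, and 90492 lA peaks were gained.

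The series holds 51 samples, of which 4 belong to this comparison, 2 of aNPC and 2 of lA. Both stages were derived from mouse ES cells of C57/BL-6 background, and these 4 samples received no siRNA. The aNPCs were grown with EGF and FGF-2 in N2-supplemented DMEM-F12, and lA were the same cells after 5 days in DMEM with LIF and 1% FBS, while eA had spent 1 day there. Chromatin was precipitated with an H3K4me1 antibody, and the reads of both samples of a stage were merged by the authors before peaks were called without an input library. There is therefore 1 list a stage, no replicate error and no p-value, and the depth of the merged libraries is unknown. Intervals below are 95% Wilson intervals over peaks and cover counting error only, and peaks are not replicates of a stage.

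H3K4me1 is the single methylation of lysine 4 on histone H3, laid down mainly by the MLL3 and MLL4 methyltransferases. It marks enhancers, both those at work and those only primed, and flanks many promoters, whereas H3K27ac, the acetylation of lysine 27, is laid on enhancers and promoters in active use. A site with H3K4me1 and no H3K27ac is commonly called primed or poised. During astrogliogenesis the LIF and BMP pathways act on progenitors through STAT and SMAD factors, while proneural basic helix-loop-helix factors, which bind E-boxes, favour neurons.

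The sequences below are shown because gained and lost peaks differed in the letters around their summits, the base of highest signal in a peak. Each is the plus strand, 200 bp centred on the summit, read from mm9 (NCBI build 37). Capitals mark every match to GGAATG (the core bound by TEAD factors, the DNA-binding partners of YAP and TAZ), to TGANTCA (the site of AP-1, the FOS and JUN dimers) and to CAGCTG (an E-box), searched on both strands. The Slc34a2 and Tnp1 windows are those of gained peaks among the strongest outside promoters and exons that hold both a TEAD and an AP-1 match. The Bmp6, Tlr4 and Thbs1 windows belong to the strongest gained peak at each gene with either match. The Grifin and Wnk2 windows are those of lost peaks among the strongest with 2 CAGCTG matches, and the Dscaml1 window that of the strongest lost peak at that gene with 1.
gained, Slc34a2 intron, chr5:53433680-53433879: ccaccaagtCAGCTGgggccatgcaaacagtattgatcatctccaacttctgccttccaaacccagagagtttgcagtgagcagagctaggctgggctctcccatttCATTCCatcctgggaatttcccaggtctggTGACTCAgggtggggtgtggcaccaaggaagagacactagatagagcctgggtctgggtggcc
gained, intergenic near Tnp1, chr1:73303901-73304100: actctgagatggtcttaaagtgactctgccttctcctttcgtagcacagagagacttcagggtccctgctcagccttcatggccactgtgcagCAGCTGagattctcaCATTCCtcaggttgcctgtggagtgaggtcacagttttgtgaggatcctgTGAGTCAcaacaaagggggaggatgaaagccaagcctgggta
gained, Bmp6 intron, chr13:38482018-38482217: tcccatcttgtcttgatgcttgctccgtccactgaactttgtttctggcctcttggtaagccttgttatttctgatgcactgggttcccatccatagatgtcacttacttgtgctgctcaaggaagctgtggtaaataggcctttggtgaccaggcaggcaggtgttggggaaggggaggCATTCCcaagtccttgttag
gained, Tlr4 intron, chr4:66579616-66579815: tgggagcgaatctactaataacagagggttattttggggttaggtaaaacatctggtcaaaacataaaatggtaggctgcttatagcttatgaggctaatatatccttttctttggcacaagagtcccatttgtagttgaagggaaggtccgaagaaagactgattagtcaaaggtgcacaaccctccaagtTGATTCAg
gained, intergenic near Thbs1, chr2:117898351-117898550: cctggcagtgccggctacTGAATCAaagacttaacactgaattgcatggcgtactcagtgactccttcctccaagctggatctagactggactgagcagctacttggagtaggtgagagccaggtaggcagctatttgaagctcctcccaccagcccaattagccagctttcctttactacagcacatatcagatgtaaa
lost, intergenic near Grifin, chr5:141032927-141033126: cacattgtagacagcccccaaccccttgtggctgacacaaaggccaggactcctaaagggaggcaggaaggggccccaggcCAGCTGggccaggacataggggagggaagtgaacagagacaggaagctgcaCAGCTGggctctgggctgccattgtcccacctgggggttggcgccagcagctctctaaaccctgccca
lost, intergenic near Wnk2, chr13:49115632-49115831: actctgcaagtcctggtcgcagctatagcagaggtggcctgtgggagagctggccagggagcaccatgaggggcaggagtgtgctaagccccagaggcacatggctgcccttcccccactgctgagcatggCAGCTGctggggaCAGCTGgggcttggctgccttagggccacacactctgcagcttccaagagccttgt
lost, Dscaml1 intron, chr9:45369173-45369372: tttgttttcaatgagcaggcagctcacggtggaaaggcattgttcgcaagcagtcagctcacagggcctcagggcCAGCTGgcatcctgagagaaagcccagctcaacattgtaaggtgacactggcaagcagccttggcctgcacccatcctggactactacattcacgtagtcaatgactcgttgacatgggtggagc

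The strength of a peak is given below as the −log10 q of MACS2, which rises with both enrichment and depth. It was 41.7 for the Slc34a2 peak and 41.7 for the Tnp1 peak, and both overlapped an H3K27ac peak in lA and none in aNPC. The Bmp6 peak had a −log10 q of 8.09, the Tlr4 peak 14.8 and the Thbs1 peak 9.89. Of these 3, the Bmp6 and Tlr4 peaks overlapped H3K27ac in lA and the Thbs1 peak at neither stage. Among the lost peaks the Grifin peak had a −log10 q of 53.3 and H3K27ac at both stages, the Wnk2 peak 45.9 and the Dscaml1 peak 20.4, both without H3K27ac in aNPC or lA. All 3 lost peaks shown overlapped an eA peak of H3K4me1, as did the Slc34a2, Tnp1 and Tlr4 peaks, whereas the Bmp6 and Thbs1 peaks did not.

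Of the aNPC peaks 26.9% were lost (26.7 to 27.1%) and 73.1% were kept. Of the lA peaks 44.5% were gained (44.3 to 44.7%) and 55.5% were kept. The gained peaks outnumbered the lost ones 2.23 times, but the lA list was itself 1.35 times as long. With the lA list cut to its 150527 strongest peaks, 53689 aNPC peaks (35.7%) were lost and 54369 lA peaks (36.1%) gained, a ratio of 1.01. That cut left out 52850 lA peaks, those with a −log10 q below 5.63. A floor of 5 on −log10 q in both lists, which left 120790 aNPC and 162715 lA peaks, gave a ratio of 2.18. Kept peaks pair nearly 1 to 1, so the lengths of the lists fix the difference between gained and lost peaks, and a ratio near 1 follows from making the lists equally long. Where the excess of gained peaks comes from is not shown by any of these settings. Depth of the merged libraries and stage cannot be told apart here.

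Peak strength separated what was kept from what was not. Among the 10% of aNPC peaks with the lowest −log10 q 51.5% were lost, against 1.48% (223 peaks) among the 10% with the highest. In the lA list the gained share went from 71.0% of the weakest 10% to 9.56% (1945 peaks) of the strongest. The median −log10 q was 6.17 for lost and 13.8 for kept aNPC peaks, and 6.48 for gained and 12.1 for kept lA peaks. Lost and gained peaks were also narrower, with median widths of 278 and 334 bp against 592 and 596 bp for the kept peaks of the aNPC and lA lists. The shares were alike along the genome, from 25.6 to 28.7% lost and from 39.8 to 48.3% gained over the 19 chromosomes.

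**Figure D1:**
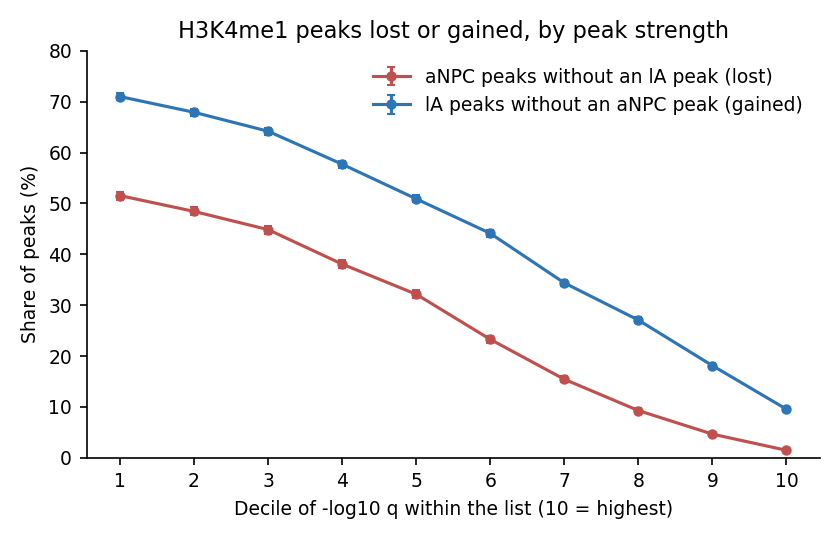
Share of H3K4me1 peaks (%) that were lost from the aNPC list (red) or gained in the lA list (blue), by decile of −log10 q within each list, 10 being the strongest; bars are 95% Wilson intervals over peaks. The lost share fell from 51.5 to 1.48% and the gained share from 71.0 to 9.56% across the deciles.

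Many lost and gained peaks lay beside a peak of the other stage. The nearest lA peak was a median of 1852 bp from a lost peak and under 1 kb away for 38.4% of them, and only 543 lost peaks (1.34%) were more than 50 kb from any lA peak. Gained peaks lay farther out, a median of 3813 bp from the nearest aNPC peak, with 26.0% under 1 kb and 2744 (3.03%) beyond 50 kb. Counting only peaks with no peak of the other list within 1 kb left 24948 lost (16.6%) and 66932 gained (32.9%). The edge of the rule touched few peaks, since 167 aNPC peaks were kept by an overlap of at most 10 bp and 200 missed an lA peak by at most 10 bp. For lA peaks these counts were 183 and 245. In bases, 60.1 Mb were covered at both stages, 66.9% of the aNPC and 51.8% of the lA coverage. Kept peaks were of like shape at both ends. In 87804 pairs of 1 aNPC and 1 lA peak the median width was 582 bp in aNPC and 602 bp in lA, and the summits were within 200 bp in 74.1% of the pairs.

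Gained peaks were the class farthest from genes' start sites. Promoters, which ran here from 1 kb before a coding start site to 100 bp past it, held 1493 of the gained peaks (1.65%) and 1966 of the lost peaks (4.85%), against 8.50% of the kept aNPC and 8.17% of the kept lA peaks. Introns held 49.4% of gained and 47.6% of lost peaks, and 46.2% of gained and 43.0% of lost peaks were intergenic. The median distance to the nearest coding start site was 39.9 kb for gained, 31.4 kb for lost and 24.1 kb for kept lA peaks.

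The eA list, which the rule did not use, placed the peaks in time. An eA peak of H3K4me1 overlapped 94.3% of the kept aNPC peaks, but only 53.3% (52.8 to 53.8%) of the lost and 37.3% (37.0 to 37.6%) of the gained peaks. Thus 21608 lost peaks were still called after 1 day, and 33726 gained peaks were already called then. In the strongest 10% of each list these shares were 97.8% of the 223 lost and 80.8% of the 1945 gained peaks, so both shares moved with peak strength.

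Most lost and gained sites carried no H3K27ac peak at any of the 3 stages: 72.2% of the lost and 79.3% of the gained peaks, against 34.2% of the kept aNPC and 33.5% of the kept lA peaks. In the strongest 10% of each list this held for 18.4% of the lost and 35.5% of the gained peaks, so for most it did not. The kept peaks there had 6.53% in the aNPC and 10.8% in the lA list. Lost and gained sites with H3K27ac followed the stage of their H3K4me1. Among lost peaks 22.2% overlapped an aNPC peak of H3K27ac, 12.3% an eA peak and 9.84% an lA peak. Among gained peaks these shares were 2.88%, 8.48% and 17.1%. The kept aNPC peaks showed no such slope, with 45.2%, 48.7% and 46.8% over the stages. The gradient was steeper in the strongest 10%, where 70.9% of the lost peaks had H3K27ac in aNPC and 25.6% in lA, and 1.80% of the gained peaks had it in aNPC and 62.3% in lA. Kept peaks in that 10% sloped as well, though less. From aNPC to lA, those of the aNPC list went from 83.3 to 74.5% and those of the lA list from 63.4 to 75.8%.

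**Figure D2:**
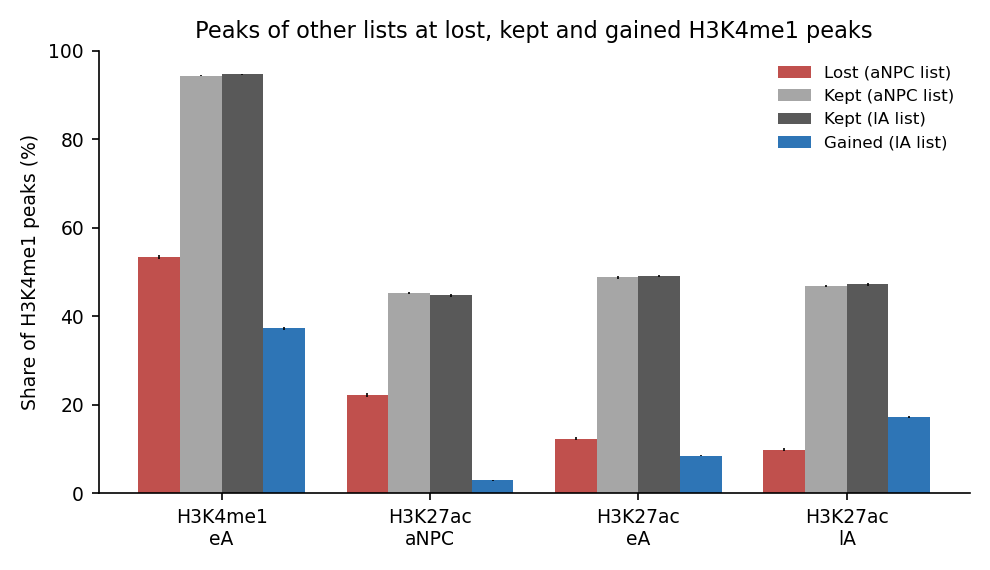
Share (%) of lost, kept and gained H3K4me1 peaks that overlap a peak of the eA H3K4me1 list or of the H3K27ac list of each stage; bars are 95% Wilson intervals over peaks. Lost peaks go from 22.2 to 9.84% with H3K27ac from aNPC to lA and gained peaks from 2.88 to 17.1%, while kept peaks stay between 44.7 and 49.1%.

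Gained peaks already called at day 1 were acetylated in lA more often, 31.5% (31.0 to 32.0%) against 8.61% (8.38 to 8.85%) of those without an eA peak. Lost peaks still called at day 1 had more often been acetylated in aNPC, 26.0% against 17.7%. These subsets also differ in strength, and its part in the difference was not tested. Lost peaks at promoters stood apart from the rest, since 50.1% had H3K27ac in aNPC and 41.3% still had it in lA, against 20.7% and 8.24% of the lost peaks elsewhere. With no lA peak within 1 kb, 15.8% of the lost peaks had H3K27ac in aNPC and 3.24% in lA.

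The letters around the summits differed between classes. Of 21 exact motifs searched in the 200-bp windows, STAT, TEAD and AP-1 had the highest ratio of gained to lost shares. GGAATG was in 17.8% of the gained windows, 10.6% of the lost, 13.4% of the kept aNPC and 12.6% of the kept lA windows, and in 10.8% of 239340 windows of the same length set every 10 kb along the genome. TGANTCA was in 9.15% of gained, 6.31% of lost and 5.93% of genome windows. The STAT palindrome TTCCNGGAA was rarer, in 1.05% of gained, 0.533% of lost and 0.506% of genome windows. Its last letters can run into a TEAD match, and 176 of the 949 gained windows with a STAT match shared bases in that way. Lost windows thus stood near the genome's level for these 3 motifs, and gained windows above it.

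E-boxes ran the other way. CAGCTG was in 19.8% of the lost, 15.8% of the kept aNPC, 15.9% of the kept lA and 11.2% of the gained windows, against 7.36% of genome windows. CAGATG, an E-box that NEUROD and NEUROG factors prefer, was in 20.9% of the lost, 16.2% of the gained and 14.995% of genome windows. Windows with at least 2 CAGCTG matches made up 2.61% of the lost and 0.738% of the gained class, and windows with at least 2 GGAATG matches 0.627% and 1.85%. The RFX motif was found in 0.407% of lost, 0.218% of gained and 0.0806% of genome windows. The NF1 half-site TTGGCA, read by NFIA and its relatives, was in 17.6% of lost and 15.9% of gained windows, both above the genome's 9.81%. The full NF1 palindrome, TTGGC and GCCAA with 5 bases between them, was rare, in 38 lost windows (0.0938%, 0.0683 to 0.129%) and 32 gained windows (0.0354%, 0.0251 to 0.0499%), against 0.0117% of genome windows. Its gained to lost ratio of 0.377 was the lowest of the 21 motifs. RUNX (TGTGGTT) was in 4.25% of lost, 4.73% of gained and 4.70% of genome windows, and the intervals of the gained and genome values overlapped (4.59 to 4.87% and 4.62 to 4.79%). SOX (ACAAAG) was in 21.2% of lost, 19.2% of gained and 17.96% of genome windows.

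Gained windows were poorer in G and C, with a median of 46.5% against 48.5% in lost and 42.0% in genome windows. Within windows of 40 to 50% GC, GGAATG was in 18.3% of gained and 10.7% of lost windows and CAGCTG in 9.72% and 16.4%. The motif shares also differed between gained peaks with and without an eA peak. AP-1 was in 11.1% of the gained windows already called at day 1 and 8.01% of the others, whereas TEAD was in 15.8% of the former and 18.9% of the latter. These subsets also differ in peak strength, and its part in the difference was not tested. A match is a run of letters, not a bound site.

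**Figure D3:**
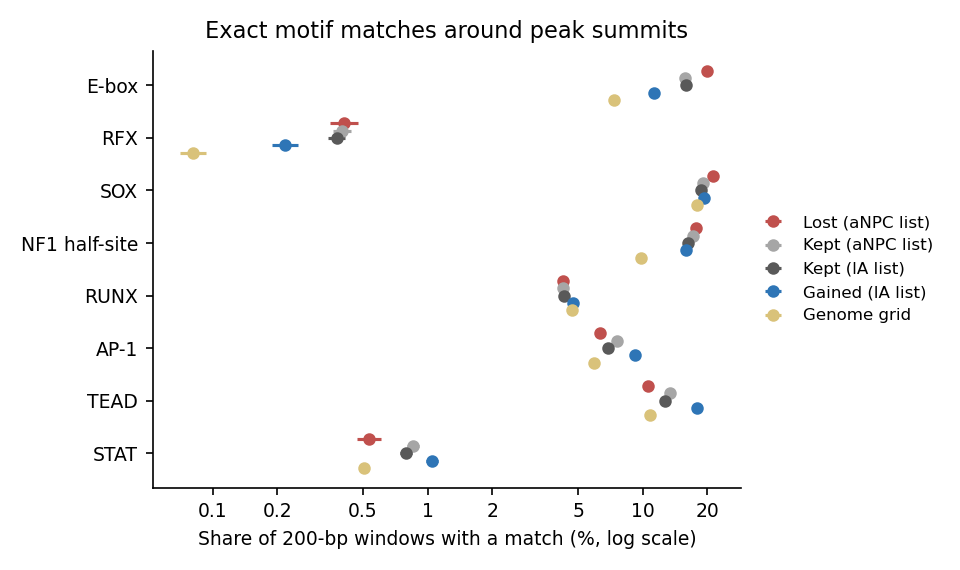
Share (%, log axis) of 200-bp summit windows with an exact match to each motif, for lost, kept and gained peaks and for windows set every 10 kb along the genome; bars are 95% Wilson intervals over windows. TEAD was in 17.8% of gained and 10.6% of lost windows, and the E-box CAGCTG in 11.2% and 19.8%.

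To ask which loci carried the change, a peak was assigned by its closest coding start site, provided that it lay at a promoter, inside a gene or no more than 50 kb away from that site. The net change of a gene is its gained minus its lost peaks. It need not equal the difference between the 2 stages' counts, because 1 kept peak can face several in the other list. Of 17524 genes with a peak, 4720 (26.9%) had a net gain of 3 or more and 719 (4.1%) a net loss of 3 or more, with a median net change of 1. With lists of equal length 1919 of 17331 genes (11.1%) had such a gain and 2189 (12.6%) such a loss. Shortening the lA list can only add lost peaks and remove gained ones, so all 719 losses held by construction, while of the 4720 gains 1919 held and 283 became losses. The loss of the excess of gains is thus built into that setting, which tells a gene or list from the others but not gain from loss over all genes. With both lists held to a −log10 q of 5 or more, 3478 of the gains (73.7%) and 377 of the losses (52.4%) were still called. Over the gene body with 5 kb on each side, whatever start site a peak is closest to, 3006 gains (63.7%) and 342 losses (47.6%) were, so about as many loss calls ended as held under these settings. List counts are given in full and with equal length, the equal-length value being the stricter for a gain and the looser for a loss.

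Long genes collect more peaks, and net gain went with length. A net gain was called for 14.5% of genes under 20 kb and 76.3% of genes of 300 kb or more, and a net loss for 2.94% and 5.27%. Between these, net gains were called for 24.9% of genes of 20 to 50 kb, 41.5% of 50 to 100 kb and 62.7% of 100 to 300 kb. With equal length the shares with a gain over the 5 length classes were 5.06, 9.51, 15.7, 28.9 and 44.6%. Those with a loss were 7.80, 11.7, 18.1, 27.2 and 27.2%. Acetylation moved with the calls: H3K27ac peaks were more numerous in lA than in aNPC at 65.2% of the net-gain genes and at 39.8% of all genes. They were fewer at 59.8% of the net-loss genes and at 24.8% of all genes.

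The lists for the labelled cell types were looked at first, and each count reads against the 26.9% of all genes with a net gain and 4.1% with a net loss, or 11.1% and 12.6% with equal length. Of 28 astrocyte genes, 13 had a net gain and 3 a net loss, with a median of 2, and with lists of equal length 2 had a gain and 9 a loss. Those are 46.4% and 10.7% of the list, both above the shares of all genes, and with equal length 7.14% and 32.1%, where the gains fell below that of all genes. The list's median length was 13.9 kb. Genes under 20 kb had 14.5% gains and 2.94% losses, and 5.06% and 7.80% with equal length. Aqp4, the water channel of astrocyte endfeet, had 16 aNPC, 34 eA and 36 lA peaks (2 lost, 21 gained), and its H3K27ac peaks went from 6 to 23 to 30. Most of that gain lay outside the 14.3-kb gene, whose body with 5 kb on each side held 4 aNPC and 7 lA peaks, 3 of them gained. Nfia, a gliogenic factor, had 71, 94 and 113 peaks over the stages, with 18 lost and 59 gained. These are the 2 genes of the list whose gain of 3 or more held with lists of equal length, at 12 and 8. The glutamate transporter Slc1a2 went from 32 to 41 peaks, and Gfap from 2 to 4 with none lost. Sparcl1, a secreted synaptogenic protein, went from 13 to 7, the connexin Gjb6 from 7 to 3, and S100b from 7 to 4. The list thus held both directions. Over gene bodies with 5 kb on each side 8 of the 13 gains and 1 of the 3 losses were still called, and those of Slc1a2 (a net change of −1), Gjb6 (0) and S100b (−2) were not.

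Of 28 neural progenitor genes with a peak, 7 had a net gain and 7 a net loss, and 4 and 15 with lists of equal length, the lowest median of all 18 lists at −3. Gains made up 25% of the list against 26.9% of all genes, and losses 25% against 4.1%. With equal length the shares were 14.3% against 11.1% and 53.6% against 12.6%. The list's median length was 9.45 kb. Genes under 20 kb had 14.5% gains and 2.94% losses, and 5.06% and 7.80% with equal length. Insm1, a zinc-finger factor of basal progenitors, had 27 aNPC, 25 eA and 14 lA peaks, with 12 lost and 1 gained, and its H3K27ac peaks went from 16 to 4 to 5. The gene is only 3.10 kb long, and 11 of the 12 lost peaks lay in introns outside it. H3K27ac peaks were assigned in the same way. Olig1 went from 20 to 14 peaks, Lhx2 from 13 to 8, Sox2 from 20 to 17 and Notch1 from 25 to 24 with 7 lost and 2 gained. The gains that held with equal length were at Cdh2, encoding N-cadherin (31, 49 and 68 peaks), at the homeobox gene Meis2 (46, 60 and 76), at Meis1 (4, 6 and 11) and at Prom1 (3, 9 and 12). Those of Egfr (21 to 28), Six3 (10 to 14) and Otx2 (7 to 12) did not. Over gene bodies 5 of the 7 gains and 4 of the 7 losses were still called. The calls of Olig1 and Sox2 (both −2), Six3 (1) and Otx2 (−1) were not.

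The proneural and neuronal list of 28 was mixed, with 11 net gains and 4 net losses, and 3 and 10 with equal length. Losses were 14.3% of it against 4.1% of all genes, and gains 39.3% against 26.9%. With equal length the losses were 35.7% against 12.6%, and the gains 10.7% against 11.1%. Neurod4 went from 7 to 2 peaks, Nhlh1 from 6 to 3 and Myt1 from 14 to 8, each a transcription factor of early neurons, while Neurod1 went from 2 to 7. The axon growth gene Stmn2 went from 2 to 10, all 9 of its gained peaks being intergenic. Over gene bodies Neurod1 had 2 peaks at both ends and Stmn2 went from 2 to 1, so neither gain was called there, while the 3 losses named were.

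**Figure D4:**
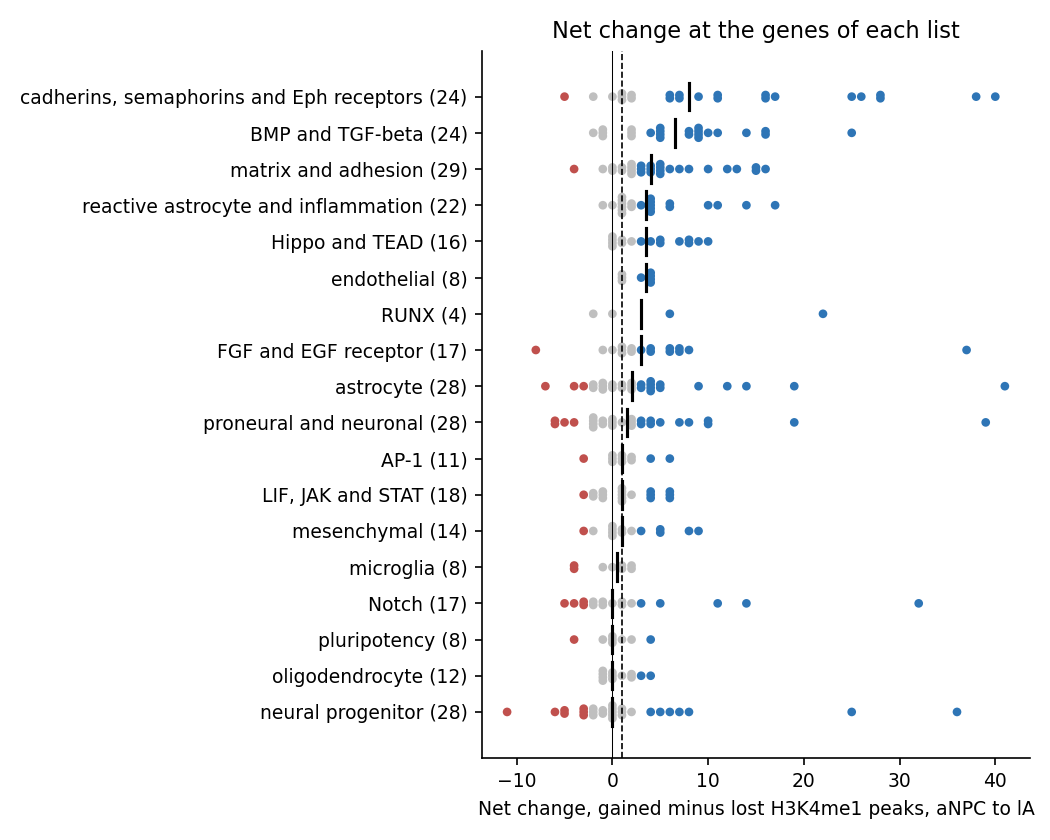
Net change (gained minus lost H3K4me1 peaks, aNPC to lA) of each gene in 18 lists, with the number of genes with a peak in brackets; blue points have a net gain of 3 or more, red points a net loss of 3 or more, bars are the list medians and the dashed line is the median of all genes, 1. The lists of cadherins, semaphorins and Eph receptors, of BMP and TGF-beta and of matrix genes have the highest medians, 8, 6.5 and 4, in full lists.

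The BMP and TGF-beta list had the most net gains of the 18 lists with equal length. Of its 24 genes 17 had a net gain and none a net loss, with a median of 6.5, and with lists of equal length 10 had a gain and 4 a loss, with a median of 1.5 where the median of all genes was 0. Its H3K27ac peaks summed to 172 in aNPC and 264 in lA. Among ligands, Bmp6 (chr13:38436995-38592183) had 5 aNPC, 21 eA and 30 lA peaks, with 29 gained and 4 lost, and its H3K27ac peaks numbered 0, 12 and 14. Bmp2 went from 4 to 12 and Tgfb2 from 18 to 30 peaks, whereas Bmp7 had 5 at both ends with 3 lost and 2 gained. Among receptors, Acvr1 went from 8 to 17, Tgfbr1 from 8 to 18 and Tgfbr3, or betaglycan, from 32 to 47. Among intracellular members, the inhibitory Smad6 went from 14 to 29 peaks and the BMP target Id2 from 10 to 22, whereas Id1 went from 11 to 9. The gains were 70.8% of the list against 26.9% of all genes, and 41.7% against 11.1% with equal length. Genes of 50 to 100 kb, the class of the list's median length of 63.2 kb, had 41.5% and 15.7%. Over gene bodies 14 of the 17 gains were still called, and those of Bmp2 (1) and Id2 (2) were not. The aNPC peak at the Bmp6 promoter, with a −log10 q of 30.0, was lost. The nearest lA peak, 233 bp away, was a gained peak at the same promoter, with a −log10 q of 5.20. The lost peak overlapped H3K27ac in lA and none in aNPC.

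The reactive astrocyte and inflammation list had the highest gained share of the 18, with 54.7% of its lA peaks gained against 42.4% over all genes, and 25.7% of its aNPC peaks lost against 26.1%. Of 22 genes 12 had a net gain and none a net loss, and 7 and 3 with equal length (gains of 31.8% against 11.1% of all genes), and its H3K27ac peaks went from 54 to 126. The list's median length was 13.7 kb, and genes under 20 kb had 14.5% gains, and 5.06% with equal length. Il1r1, the interleukin-1 receptor, had 7 aNPC, 18 eA and 24 lA peaks, and H3K27ac peaks of 2, 10 and 12. Tlr4, the lipopolysaccharide receptor, had 2, 9 and 16 peaks, all 14 changes being gains, and H3K27ac peaks of 4, 5 and 11. S1pr3, a sphingosine-1-phosphate receptor, went from 7 to 17, the metalloreductase Steap4 from 4 to 14, Il6 from 1 to 6 and the oncostatin receptor Osmr from 4 to 10. Lcn2, encoding lipocalin-2, had no aNPC peak and 2 in lA, 1 of them at its promoter with H3K27ac. Ccl2 went from 8 to 7 and Icam1 had 1 at each stage. Over gene bodies 8 of the 12 gains were still called, and that of Il6 (1) was not.

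Matrix and guidance genes had many net gains in the full lists and about as many gains as losses with equal length. Of 29 matrix and adhesion genes, with a median length of 82.5 kb, 19 had a net gain (65.5%) and 1 a net loss, and 7 (24.1%) and 8 (27.6%) with equal length. Tenascin-C (Tnc) went from 10 to 25 peaks, thrombospondin-1 (Thbs1) from 8 to 22, integrin beta-1 (Itgb1) from 10 to 22 and the laminin chain Lamb1 from 5 to 15, while integrin beta-3 (Itgb3) went from 11 to 5. Genes of 50 to 100 kb had 41.5% gains, and 15.7% gains and 18.1% losses with equal length. Of 24 cadherin, semaphorin and Eph genes, with a median length of 299 kb, 16 had a net gain (66.7%) and 1 a net loss, and 7 (29.2%) and 9 (37.5%) with equal length. All of these exceeded the shares of all genes, though the full-list loss, 4.17%, lay near the 4.1% of all genes. The gains were near those of genes of such length, with 62.7% from 100 to 300 kb and 76.3% above, and 28.9% and 44.6% with equal length. Robo1, a Slit receptor, went from 30 to 69 peaks and Efna5 from 25 to 51, while H3K27ac peaks of the list summed to 407 in aNPC and 358 in lA. Epha7 was the loss, from 9 to 3. Over gene bodies 14 of the 19 matrix gains and 14 of the 16 guidance gains were still called. The gain of Nrp2 (24 peaks lost, 50 gained) turned there to a net change of −3.

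Genes of the factors named by the motifs, and of the pathways that drive or oppose gliogenesis, were counted next. Of 16 Hippo and TEAD genes 9 had a net gain and none a net loss, and 2 and 1 with equal length. The gains were 56.25% of the list against 26.9% of all genes, but 12.5% against 11.1% with equal length, near that share. Amotl2 went from 15 to 26, the TEAD cofactor gene Vgll3 from 2 to 10, and Tead1 from 58 to 74. With equal length the net change was 5 at Vgll3, 2 at Amotl2 and −10 at Tead1, so the last was a loss there. Over gene bodies 7 of the 9 gains were still called, and that of Amotl2, with a net change of 0, was not. Of 11 AP-1 genes Atf3 (7 to 13) and Fosl2 (2 to 6) had a net gain and Batf (6 to 3) a net loss, and 1 and 3 genes did with equal length. Over gene bodies the calls of Atf3 (1) and Batf (−2) were lost. That is 2 gains among 11 genes, against 26.9% of all genes. Of 18 LIF, JAK and STAT genes 6 had a net gain and 1 a net loss, and 2 and 7 with equal length, beside 26.9% and 4.1% of all genes in full lists and 11.1% and 12.6% with equal length. The receptor chain Il6st went from 9 to 16, with 9 of its 10 gained peaks intergenic, and Jak1 from 21 to 27. Over gene bodies their net changes were 0 and 2, so neither was a call there, and 3 of the 6 gains were. Lifr went from 31 to 24 and Stat3 from 10 to 11. Of 4 RUNX genes 2 had a net gain and none a net loss, and 1 and 1 with equal length. That is 50% gains against 26.9% of all genes, and with equal length 25% gains and 25% losses against 11.1% and 12.6%, over only 4 genes. Runx2 went from 51 to 74 with H3K27ac peaks going from 15 to 36. Of 17 Notch genes 5 had a net gain and 4 a net loss, and 2 and 7 with equal length, with a median of −2 there. The losses were 23.5% of the list against 4.1% of all genes, and 41.2% against 12.6% with equal length, while the gains, at 29.4% and 11.8%, lay near the 26.9% and 11.1% of all genes. Rbpj, the DNA-binding partner of Notch, went from 13 to 29 and its coactivator Maml3 from 37 to 65, while the ligand Dll1 went from 14 to 11 and the modifier Lfng, whose loss was not called over its body (−1), from 8 to 6. Of 17 FGF and EGF genes 9 had a net gain and 1 a net loss, and 1 and 7 with equal length. The gains were 52.9% of the list against 26.9% of all genes, and 5.88% against 11.1% with equal length. The losses were 5.88% against 4.1%, and 41.2% against 12.6% with equal length, the latter the same as in the Notch list. Etv1, a transcription factor downstream of FGF, was the loss, from 32 to 24, with H3K27ac peaks going from 27 to 17 to 6.

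Markers of other cell types that the cultures could hold were counted in the same way. Every gene of the oligodendrocyte, microglia, endothelial and mesenchymal lists had at least 1 peak at 1 of these stages. Summed peaks from aNPC to lA went from 91 to 101 over 12 oligodendrocyte genes, from 30 to 27 over 8 microglia genes, from 73 to 98 over 8 endothelial genes and from 128 to 163 over 14 mesenchymal genes. The 8 pluripotency genes with a peak went from 51 to 56. Single genes ranged from few peaks, as at the myelin genes Mag (1 and 1) and Mog (2 and 3) and the microglial Itgam (1 and 1) and Cx3cr1 (0 and 1), to many, as at Mbp (20 and 23) and Cnp (12 and 12) and the microglial P2ry12 (9 and 10) and Ptprc (9 and 5). The endothelial list had 5 net gains and no net loss, and 2 and 0 with equal length, with a median of 3.5 that equals that of the reactive list. Its gains were 62.5% of the list against 26.9% of all genes, and 25% against 11.1% with equal length, over 8 genes. The list's median length was 71.0 kb, and genes of 50 to 100 kb had 41.5% and 15.7%. Over gene bodies 2 of the 5 gains were still called. The mesenchymal list had 5 and 1, and 3 and 2 with equal length, so that gains were 35.7% of it against 26.9% and 21.4% against 11.1%. Acta2 (4 to 9), Twist1 (13 to 21) and Twist2 (6 to 11) had the gains that held with equal length, and that of Prrx1 (17 to 27) did not. Over gene bodies Acta2 had 4 peaks at both ends and Twist1 went from 4 to 5, so that of the 5 gains 2 were called, Twist2 and Prrx1. The oligodendrocyte list had 2 and 0 (0 and 1 with equal length), the microglia list 0 and 2 (0 and 2) and the pluripotency list 1 and 1 (0 and 1). In that order gains were 16.7%, 0% and 12.5% of the lists against 26.9% of all genes, and losses 0%, 25% and 12.5% against 4.1%. With equal length losses were 8.33%, 25% and 12.5% against 12.6%. Peaks do not measure expression, and the part of other cell types in the gains was not tested.

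The genes with the largest net gain were long. Csmd1 (chr8:15892537-17535586), a complement-regulating membrane protein gene of 1643 kb, had 20 aNPC, 49 eA and 123 lA peaks, with 4 lost and 106 gained, and its H3K27ac peaks numbered 1, 12 and 27. With lists of equal length its net change was 51. Its gained peaks lay mostly in introns (94), 26 of the 106 had an eA peak, 11 had H3K27ac in lA, and 19 windows held GGAATG. Next came Fhit (54 to 136 peaks), Rbms3 (83 to 159), Ptprg (89 to 159), Ctnnd2 (54 to 121), Pde4d (105 to 168), Gpc6 (37 to 103) and Rora (95 to 166). Of the 15 genes at the top, 14 were 300 kb or longer, and the last, Lrrtm1 (27 to 87), lies inside Ctnna2 and had a net change of −2 within its own body. H3K27ac peaks were more numerous in lA at 13 of the 15, most at Adamtsl1 (13 to 56), and fewer at Rora (64 to 54). Ube2e2, a ubiquitin-conjugating enzyme gene, went from 13 peaks to 62 with 1 lost.

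At the 15 genes with the largest net loss, H3K27ac peaks were fewer in lA at 14 and more numerous at 0. Dscaml1 (chr9:45235288-45561343), encoding a homophilic adhesion molecule of neurons, had 58 aNPC, 48 eA and 30 lA peaks, with 31 lost and 3 gained, and was the exception with 20 H3K27ac peaks at both ends. Auts2, a neurodevelopmental regulator, had 126, 116 and 102 peaks, with 53 lost and 27 gained, and 67, 27 and 32 H3K27ac peaks. Ahi1, a ciliary gene, went from 30 to 21 peaks and from 17 to 2 in H3K27ac. Vrk1, a kinase gene of dividing cells, went from 22 to 12 with none gained, and from 14 to 0 in H3K27ac. Sez6l went from 34 to 18, Wscd1 from 31 to 17, Elfn2 from 22 to 12 and C530008M17Rik from 26 to 13, the last 2 with none gained. Gse1 went from 69 to 43, but it lies inside Gm20388 and its own body had a net change of −5. Insm1 is only 3.10 kb long, and 11 of its 12 lost peaks lay from 28.4 to 110.3 kb past its start. None lay inside the gene, and 11 of the 12 were in introns of other coding genes. Its body with 5 kb on each side had a net change of −3.

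**Figure D5:**
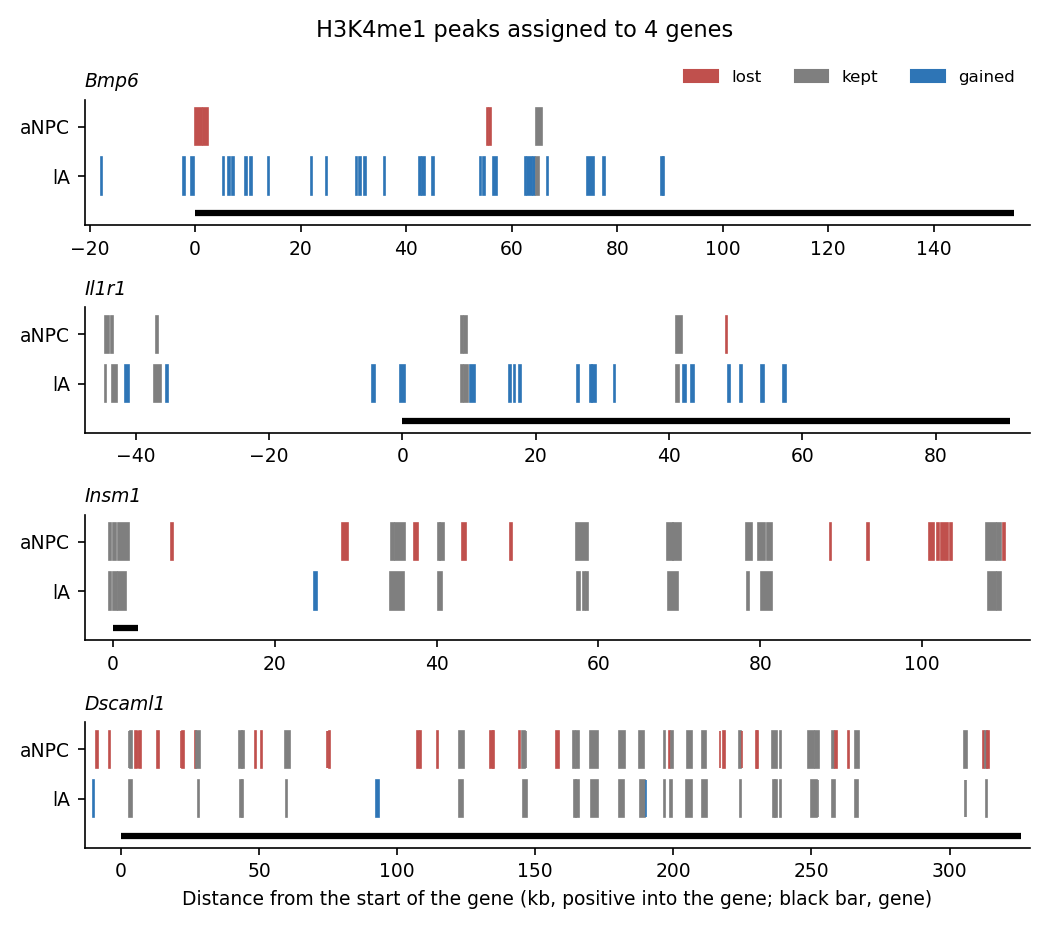
H3K4me1 peaks assigned to Bmp6, Il1r1, Insm1 and Dscaml1 in aNPC and lA, by distance from the start of the gene in kb, positive into the gene; red peaks were lost, blue gained and grey kept, and the black bar is the gene. Bmp6 and Il1r1 have 29 and 18 gained peaks, and Insm1 and Dscaml1 have 12 and 31 lost peaks. The lost peaks of Insm1 all lie past the end of the gene.

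The strongest lost peaks mostly sat beside an lA peak. They were nearest to Tm9sf4, Gm9881, Adcy1, Ndst1 and Arpc1b, with a −log10 q of 75.04, 71.9, 63.7, 63.1 and 62.9, and each had an lA peak 67 to 229 bp away and an eA peak on it. The peak at the promoter of Socs3, the feedback inhibitor of LIF signalling, followed at 61.2, with an lA peak 155 bp away and H3K27ac at all stages. The strongest lost peak with no lA peak within 10 kb lay in an intron of Cdk6, at a −log10 q of 54.0 and 10239 bp from the nearest lA peak, and its H3K27ac was called in aNPC alone. Among gained peaks the highest −log10 q, 147, was at Sfi1 with a fold of only 3.40 over background and H3K27ac at all stages. Those at St6galnac1 (74.6), Fam65c (61.1), Bptf (58.4) and Slc16a7 (57.9) followed, all with an eA peak and with H3K27ac in lA, and with the nearest aNPC peak 201 to 8279 bp away.

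At promoters, members of the lists both lost and gained peaks. Promoter peaks were lost, among others, at the astrocyte genes Slc1a2 and Hepacam, at Thbs1, at Atf3, at the BMP inhibitor Smad7 and at Neurod4, where the nearest lA peak was 13308 bp away and neither stage had H3K27ac. At Slc1a2 and Hepacam an lA peak lay 131 and 612 bp away, and at Thbs1 and Atf3 526 and 1009 bp away. Hepacam, Thbs1 and Atf3 kept H3K27ac at the lost peak in lA. Promoter peaks were gained at the astrocyte genes Clu, Atp1b2 and Acsbg1, none with H3K27ac in lA. The nearest aNPC peak to that of Clu was 150 bp away, and Atp1b2 also lost a promoter peak. Others were gained at Lcn2, Il1r1, Acvr1, Lama2, Acta2 and Pax6. Those of Lcn2, Acvr1, Lama2 and Acta2 had H3K27ac in lA and none in aNPC, while those of Il1r1 and Pax6 had none at either stage.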

How the data were processed

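H3K4me1 and H3K27ac ChIP-seq peaks of aNPC, eA and lA were analysed. The authors aligned reads uniquely to mm9 with Bowtie, merged the 2 replicates of each stage and called peaks with MACS2 at default settings without input, so every deposited value is of a merged library: a fold ratio over local background, a −log10 q and a summit. No counts of reads were used, and depth is unknown.

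The members, gene lists and comparisons were chosen with earlier results of these data known. Overlaps, Wilson intervals and motif matches were computed in Python 3.11.15 with NumPy 2.4.6, pandas 2.3.3 and SciPy 1.17.1, and drawn with matplotlib 3.10.9. The overlap and assignment steps were tested on simulated data. Genes and sequence came from NCBIM37 with GENCODE annotation, whose 46028 start sites of protein-coding transcripts on chromosomes 1 to 19 served for assignment. The genes named were the 15 with the largest net gain and the 15 with the largest net loss, members of 18 lists with a net change of 3 or more, and genes at the 5 strongest lost and 5 strongest gained peaks and at the 5 windows of 100 kb with most gain or loss. The peaks whose sequences are printed, the Socs3 and Cdk6 peaks, promoter peaks, the Hoxa window and the windows without a coding gene, and list members named with a smaller net change or for other cell types were picked after their values were seen.

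Alternatives changed the overlap, the −log10 q floor, list length, promoter width, gene assignment, the call and the motif window. For 8 RNA samples the labels conflicted, and they were given no group. RNA and siRNA samples entered no comparison here.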

Additional observations from a re-analysis of the deposited data

How the results depend on the processing

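No paired analysis was possible because the replicates of each stage were merged before peaks were called, and for the same reason no replicate could be left out. The lost share of 26.9% became 34.8% when 50% of a peak had to be covered, 33.3% when its summit had to lie in the other list, 16.6% with no peak within 1 kb, 27.2% when both lists were held to a −log10 q of 5 or more, 21.2% with that floor on the counted list only, 35.7% with lists of equal length and 27.2% with X and Y. The gained share of 44.5% became 53.0%, 51.0%, 32.9%, 44.1%, 38.3% and 36.1% under the first 6 of these. With equal length 1919 genes had a net gain and 2189 a net loss, and at a net change of 5 these were 2777 and 196. Counting summits inside H3K27ac peaks gave 12.001% of gained peaks acetylated in lA and 16.4% of lost peaks acetylated in aNPC. Equal length gave 22.5% and 23.8%, and the floor of 5 gave 23.9% for the lost. Promoters of 1 kb on either side held 8.38% of lost and 2.67% of gained peaks. In 500-bp windows the gained minus lost difference was 12.2 percentage points for TEAD, 5.475 for AP-1, 1.02 for STAT and −12.5 for the E-box, against 7.23, 2.84, 0.516 and −8.58 in 200 bp. Within 40 to 50% GC it was 2.27 for AP-1 and −6.67 for the E-box. Causes were not tested. Depth and the number of weak lA peaks limit every count of gained peaks.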

Other observations

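In 24731 windows of 100 kb along chromosomes 1 to 19, of which 19679 held a lost or gained peak, 5122 had a net gain of 5 or more and 345 a net loss of 5 or more. The window with most net gain lay in Ube2e2 (chr14:19400001-19500000), with 2 peaks in aNPC and 27 in lA, none lost, and H3K27ac peaks going from 1 to 11. Windows at Shroom3 (10 to 34 peaks), Camk2d (12 to 35), Leprel1 (8 to 31) and Csmd1 (6 to 30) followed. A window of chromosome 11 that touches no coding gene (chr11:56300001-56400000) had 0 peaks in aNPC and 21 in lA, 3 H3K27ac peaks being called there in lA.

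The window with most net loss lay at Wscd1 (chr11:71500001-71600000), with 28 peaks in aNPC and 14 in lA. Windows at Elfn2 and Mfng (22 to 12) and in Gm20388 (30 to 15) followed. A window of chromosome 15 without a coding gene (chr15:74200001-74300000) went from 14 peaks to 2 with no H3K27ac peak at either stage. The window over the Hoxa genes (chr6:52100001-52200000), the anterior-posterior patterning cluster, had 14 lost and 3 gained peaks, going from 32 to 17, while its H3K27ac peaks went from 13 to 15.

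Among genes with a body under 100 kb, a limit set after the data were seen, 3273 had a net gain and 560 a net loss. The largest net gains there after Lrrtm1 were at Lrrn3 (45 to 91 peaks), Flrt3 (42 to 87), Pawr (14 to 54) and Egln3 (75 to 116). Whether these genes lie inside longer ones, as Lrrtm1 does, was not tested. H3K27ac peaks went from 24 to 13 at Flrt3 and were more numerous in lA at Lrrn3, Pawr and Egln3. Losses at Rlbp1, a retinaldehyde-binding protein gene (16 to 5 peaks, 9 lost and none gained), and Fam69c (17 to 7) were among the largest.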
